A study of Mus musculus with 18 samples.

Results

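Complement genes were examined in bone marrow-derived macrophages (BMMs) with different levels of glucocorticoid-induced leucine zipper (GILZ). The 9 genes, C1qa, C1qb, C1qc, C3, C3ar1, C5ar1, Cfb, Cfp and C4b, were chosen by name among 38887 annotated genes and cover the C1q chains, the central component C3, 2 components of the alternative pathway, 1 form of C4 and the receptors of the anaphylatoxins C3a and C5a. BMMs were grown for 6 days with 50 ng/ml M-CSF from the marrow of adult female C57BL/6J mice, and their RNA was sequenced either untreated or following stimulation for 4 h by lipopolysaccharide (LPS, 100 ng/ml), a bacterial cell wall component that activates macrophages. There were 3 libraries for each of 3 genotypes under both conditions, 18 in all. WT animals were named Lyz2-Cre mice by the study, carrying Cre recombinase at the Lyz2 locus of the myeloid lineage. GILZ KO animals carried the same Cre together with a loxP-flanked exon 6 of Tsc22d3, the gene of GILZ, and GILZ TG animals carried it together with a Tsc22d3 cDNA at the ROSA26 locus behind a loxP-flanked stop cassette. GILZ is therefore altered wherever Lyz2-Cre is active and not in macrophages alone.

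Complement is a cascade of plasma proteins that tags microbes and cell debris for uptake. C1q binds immune complexes and dying cells and starts the classical pathway, C4 is cleaved next, and C3 is the point where all pathways meet. In the alternative pathway, factor B (Cfb) forms the C3 convertase with a C3 fragment, and properdin (Cfp) stabilizes it. The cleavage fragments C3a and C5a are sensed by C3ar1 and C5ar1 on myeloid cells. Most complement proteins of plasma come from the liver, while macrophages are a main source of C1q and properdin.

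Expression is given as TPM, a share of all transcripts of a library that takes transcript length into account, and comparisons were tested on expected counts (estimated reads per gene) with edgeR's quasi-likelihood test. The Benjamini-Hochberg adjustment of p-values ran over all genes tested, with a threshold of 0.05, and SE is the standard error of a log2 fold change. The total per library was between 14583055 and 38557029 counts. Tsc22d3 was at 14.9 to 18.8 TPM in untreated WT, 1.89 to 2.81 TPM in GILZ KO and 151.97 to 159.83 TPM in GILZ TG, which fits the labels. After LPS it was at 4.56 to 5.81 TPM in WT, 2.5 to 3.28 TPM in GILZ KO and 127.22 to 140.56 TPM in GILZ TG. GILZ KO lay below WT without overlap there, but the log2 fold change of -0.69 did not pass the threshold (adjusted p = 0.15 from edgeR), so WT and GILZ KO were closer in Tsc22d3 after LPS than without treatment (-2.74, adjusted p = 2.16e-05), with a difference of 2.02 between the LPS responses of Tsc22d3 (adjusted p = 0.000782). Lyz2 was at 11048 to 15401 TPM in untreated WT, but at 26.7 to 45.8 TPM in GILZ KO and 17.2 to 53.1 TPM in GILZ TG, although the methods name Lyz2-Cre for all 3 genotypes. A difference from WT therefore cannot be told apart from this difference in Lyz2. All 5 macrophage markers were detected in every library, with summed levels of 2610 to 3183 TPM.

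The GILZ TG libraries were not uniform. Replicates 1 and 2 had 104.28 and 120.38 TPM of 8 stromal fibroblast markers without treatment, against 10.4 TPM in replicate 3 and 5.09 to 22.9 TPM in the other genotypes, and after LPS 83.4 and 114.8 against 10.85 TPM. The 7 markers of the neutrophil lineage summed to 187.0 and 482.4 against 68.3 TPM in untreated GILZ TG, and the 6 B cell markers to 91.5 and 152.9 against 35.9 TPM. Untreated WT had 23.8 to 61.2 TPM of the neutrophil lineage markers and GILZ KO 31.0 to 60.4 TPM. For the B cell markers it was 30.9 to 35.4 and 31.6 to 34.7 TPM. Replicate 3 was thus also above both genotypes in neutrophil lineage markers and slightly in the B cell sum. Its Igkc, 1 of the B cell markers, was at 11.36 TPM untreated and 7.28 TPM after LPS. WT and GILZ KO had at most 1.46 and 2.22 TPM of Igkc. Its Cd79b (7.88 TPM) and Ighm (16.56 TPM) were below both genotypes without treatment. A fit without replicates 1 and 2 keeps the excess of replicate 3 in neutrophil lineage markers and Igkc. T cell and erythroid markers were at 0 or below 1 TPM in all libraries. Members called in a comparison with GILZ TG, and Itgax among the other complement genes, are therefore also given without replicates 1 and 2.

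Windows of 250 bases before the transcription start were taken from RefSeq (GRCm38.p6) for the 6 members listed there, C1qb, C1qc, C3, C3ar1, C5ar1 and Cfp. C3 and C3ar1 are shown because both genes were higher after LPS in all genotypes, by very different amounts. Both strands were searched for an NF-kB motif, for the C/EBP motif TTNNGNAA, for the ISRE core and for the GAS motif TTCNNNGAA. Capitals mark matches.
C3 (minus strand, chr17:57228137-57228386): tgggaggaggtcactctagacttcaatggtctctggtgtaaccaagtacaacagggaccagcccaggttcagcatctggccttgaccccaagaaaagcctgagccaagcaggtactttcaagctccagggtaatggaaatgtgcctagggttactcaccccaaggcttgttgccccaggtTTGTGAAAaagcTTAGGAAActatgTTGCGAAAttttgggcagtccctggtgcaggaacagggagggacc
C3ar1 (minus strand, chr6:122856158-122856407): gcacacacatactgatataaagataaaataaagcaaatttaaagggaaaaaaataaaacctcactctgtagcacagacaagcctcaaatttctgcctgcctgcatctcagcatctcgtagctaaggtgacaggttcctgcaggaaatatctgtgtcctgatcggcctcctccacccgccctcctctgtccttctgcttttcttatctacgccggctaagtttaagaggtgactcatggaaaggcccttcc

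The C3 window held 3 matches to the C/EBP motif, from -70 to -63, -58 to -51 and -45 to -38 relative to the start, and none to the other motifs. The C3ar1 window held no match, as did those of C1qb and Cfp. C1qc held 1 NF-kB and 1 C/EBP match, and C5ar1 held 1 C/EBP match. In the GENCODE annotation given below, these genes start further upstream, at 136893065 and 16259540, within the RefSeq windows. Their matches therefore lie inside the genes as annotated there. Among 32851 promoter windows of this length, 36.8% held the C/EBP motif, 7.25% NF-kB, 2.98% the ISRE core and 7.02% GAS. The C/EBP motif is thus frequent, and a match is a description of the letters only.

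In the GENCODE vM21 annotation (GRCm38) all members are protein coding genes on the minus strand. C1qa (chromosome 4, 136895917 to 136898803), C1qc (136889804 to 136893065) and C1qb (136880129 to 136886187) are neighbours. C3 (57203970 to 57228136), Cfb (34856374 to 34862518) and C4b (34728380 to 34743882) lie on chromosome 17, C3ar1 on chromosome 6 (122847138 to 122856161), C5ar1 on chromosome 7 (16246743 to 16259540) and Cfp on chromosome X (20925454 to 20931555).

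The members were expressed at very different levels. In untreated WT BMMs, C1qb had the highest mean with 980.9 ± 35.1 TPM (SD, n = 3), followed by Cfp with 658.7 ± 46.2 TPM and C5ar1 with 640.6 ± 24.2 TPM, whose ranges overlapped. C1qc was at 501.7 ± 44.9 TPM and C3ar1 at 442.9 ± 51.4 TPM, again with overlapping ranges. C1qa was lower at 122.7 ± 1.11 TPM, and C3 was at 32.1 ± 4.89 TPM. Cfb was at 0.497 ± 0.067 TPM and C4b at 0.23 ± 0.226 TPM, so that these genes were near the detection limit in untreated cells. C4b had between 1.03 and 37.28 expected counts per library, which were not whole numbers (by more than 0.005) in 17 of 18 libraries and neither were those of its close paralog C4a. Reads of the pair may be split between them, so values of C4b are uncertain. Cfb counts were not whole in 4 libraries.

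**Figure D1:**
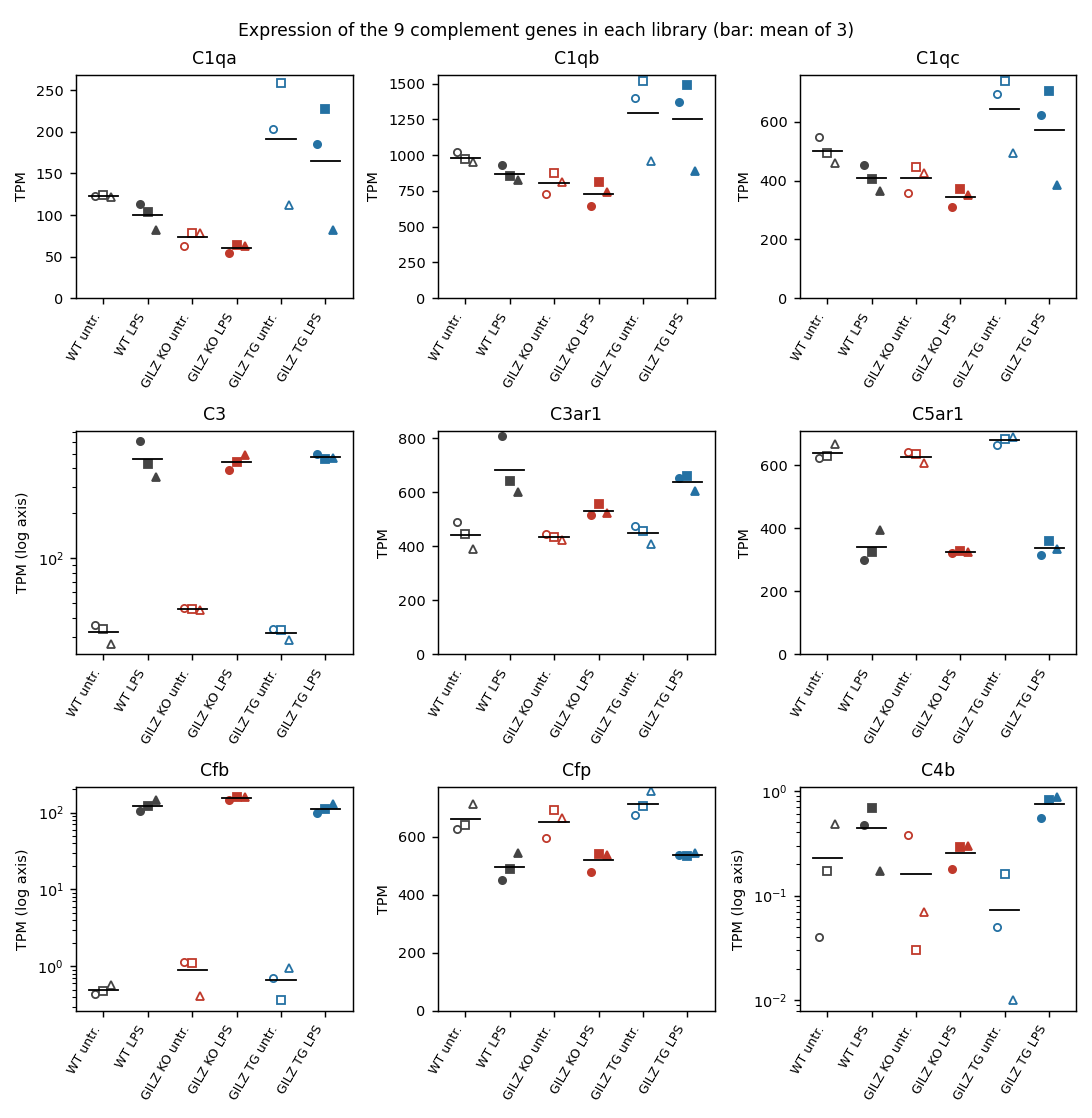
TPM of each member in the 18 libraries, by genotype and treatment (open symbols untreated, filled symbols after LPS, circle, square and triangle for replicates 1, 2 and 3, bar for the mean); C3, Cfb and C4b have a log axis. Cfb is at 0.36 to 1.15 TPM in untreated and at 98.02 to 158.7 TPM in LPS-treated libraries, and C1qa, C1qb and C1qc are high in 2 of the 3 GILZ TG libraries of each treatment.

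The LPS comparison asked which complement genes of the macrophage respond to an inflammatory stimulus. Its values depend on the scale. After LPS the TPM of most genes were lower: the median difference over the 13169 genes tested was -0.51 in WT, -0.52 in GILZ KO and -0.51 in GILZ TG on log2(TPM + 1), and -0.70, -0.66 and -0.69 with counts scaled by library totals. TMM scaling of edgeR centres the median gene, with -0.02 in each genotype. Fold changes below are on the TMM scale, that is, relative to the median gene, unless TPM is named. In WT, 5 of 9 members rose and 1 fell, where 33.5% of all genes rose and 35.1% fell. In GILZ KO, 6 rose and 1 fell (background 33.2% and 35.4%), and in GILZ TG 7 rose and 1 fell (33.6% and 35.1%). The median of the members was 0.46 in WT, 0.50 in GILZ KO and 0.58 in GILZ TG. On log2(TPM + 1) with limma, 3 members rose and 2 fell in WT (16.1% and 65.0% of all genes), 3 and 2 in GILZ KO (15.3% and 66.1%) and 4 and 2 in GILZ TG (15.6% and 65.2%). In TPM, LPS libraries lay without overlap above the untreated ones for 3 members and below for 5 in WT (16.3% and 64.8% of all genes), for 3 and 2 in GILZ KO (16.4% and 67.3%) and for 4 and 2 in GILZ TG (15.7% and 65.2%).

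Cfb and C3 showed the largest LPS responses. Cfb, the protease of the alternative pathway C3 convertase, was at 0.44, 0.48 and 0.57 TPM in untreated WT and at 105.4, 120.4 and 143.7 TPM after LPS. It was at 1.15, 1.12 and 0.41 TPM in untreated GILZ KO and at 144.0, 158.7 and 157.1 TPM after LPS. In GILZ TG it was at 0.71, 0.36 and 0.94 TPM and at 98.02, 109.5 and 127.5 TPM. In each genotype all LPS libraries lay far above all untreated ones, and the lowest LPS value was above the highest untreated value of any genotype. The log2 fold change was 8.71 in WT (SE 0.23, adjusted p = 1.55e-15 from edgeR), 8.26 in GILZ KO (0.22, adjusted p = 2.33e-15) and 8.55 in GILZ TG (0.23, adjusted p = 2.68e-15). Untreated libraries had 10 to 28 counts of Cfb, which limits the precision of the fold but not its direction.

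C3, which is cleaved by all pathways, was at 36.1, 33.5 and 26.7 TPM in untreated WT and at 609.2, 427.8 and 347.2 TPM after LPS. In GILZ KO it went from 46.9, 45.8 and 45.3 TPM to 387.0, 438.7 and 493.7 TPM. In GILZ TG it went from 33.5, 33.3 and 28.45 TPM to 500.6, 464.3 and 469.4 TPM. The groups did not overlap in any genotype, and the ratio of the mean TPM was 14.4 in WT, 9.56 in GILZ KO and 15.1 in GILZ TG. On the log2 scale the change was 4.48 (SE 0.19, adjusted p = 1.1e-12 from edgeR), 3.98 (0.19, adjusted p = 4.52e-12) and 4.60 (0.19, adjusted p = 8.38e-13). C3 and Cfb kept their direction and their adjusted p under 0.05 in all alternatives tested in each genotype. Without GILZ TG replicates 1 and 2 the change in GILZ TG was 4.87 for C3 and 8.50 for Cfb.

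C4b, a form of the component that follows C1 in the classical pathway, also had a positive log2 fold change, 1.88 in WT (SE 0.52, adjusted p = 0.00412 from edgeR), 2.22 in GILZ KO (0.62, adjusted p = 0.00454) and 3.37 in GILZ TG (0.58, adjusted p = 5.98e-05). Its level remained low, with at most 0.87 TPM in any library. The TPM of untreated and LPS libraries overlapped in WT and in GILZ KO but not in GILZ TG. On log2(TPM + 1), the difference was past the threshold in GILZ TG only, with adjusted p = 0.176 in WT and 0.453 in GILZ KO from limma. Without GILZ TG replicates 1 and 2 the log2 fold change of C4b in GILZ TG was 3.92 (adjusted p = 0.0232 from edgeR).

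The anaphylatoxin receptors moved in opposite directions. C3ar1, the receptor of C3a, was at 491.9, 447.7 and 389.3 TPM in untreated WT and at 807.4, 642.4 and 601.9 TPM after LPS. In GILZ KO it went from 444.8, 435.9 and 422.6 TPM to 516.7, 557.9 and 523.4 TPM. In GILZ TG it went from 477.3, 457.4 and 408.9 TPM to 654.5, 659.9 and 605.0 TPM. LPS libraries lay above untreated ones in each genotype even in TPM. The log2 fold change was 1.26 in WT (SE 0.10, adjusted p = 3e-09 from edgeR), 0.93 in GILZ KO (0.10, adjusted p = 1.54e-07) and 1.15 in GILZ TG (0.10, adjusted p = 1.02e-08), where it was 1.24 without replicates 1 and 2 (adjusted p = 5e-05).

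C5ar1, the G protein-coupled receptor of C5a, was at 622.8, 630.9 and 668.1 TPM in untreated WT and at 299.8, 324.1 and 396.5 TPM after LPS. In GILZ KO it went from 641.6, 635.8 and 608.2 TPM to 321.1, 328.2 and 324.1 TPM, and in GILZ TG from 666.4, 685.3 and 690.8 TPM to 317.3, 360.3 and 335.1 TPM. TPM fell to between 0.496 and 0.531 of the untreated mean, without overlap. Relative to the median gene the decrease was smaller, with log2 fold changes of -0.29 in WT (SE 0.08, adjusted p = 0.00457 from edgeR), -0.31 in GILZ KO (0.08, adjusted p = 0.00238) and -0.38 in GILZ TG (0.08, adjusted p = 0.000485). C5ar1 remained past the threshold in all alternatives in each genotype, with -0.37 in GILZ TG without replicates 1 and 2 (adjusted p = 0.0495). The ratio of C3ar1 to C5ar1 TPM within a library was 0.583 to 0.79 in the untreated libraries and 1.52 to 2.69 after LPS.

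The C1q chains and properdin changed direction with the scale. C1qb was at 1020.1, 970.0 and 952.5 TPM in untreated WT and at 928.1, 854.2 and 824.6 TPM after LPS. Its log2 fold change relative to the median gene was 0.46 in WT (SE 0.16, adjusted p = 0.0174 from edgeR), 0.50 in GILZ KO (0.16, adjusted p = 0.0108) and 0.58 in GILZ TG (0.16, adjusted p = 0.00373), whereas on log2(TPM + 1) the differences were -0.18, -0.14 and -0.05 and not past the threshold (adjusted p = 0.361, 0.461 and 0.786 from limma). The estimated decrease in the share of C1qb was thus smaller than that of the median gene, and no loss of its share passed the threshold. In WT the adjusted p was above 0.05 without untreated replicate 1, 2 or 3 or without LPS replicate 1 (0.0519 to 0.0675), and in GILZ KO without untreated replicate 1 or LPS replicate 2 (0.0602 and 0.0552). In GILZ TG without replicates 1 and 2 it was 0.56 (adjusted p = 0.0113).

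C1qc behaved alike with smaller values, 0.34 in WT (adjusted p = 0.086 from edgeR), 0.39 in GILZ KO (adjusted p = 0.0548) and 0.46 in GILZ TG (adjusted p = 0.0244), against -0.30, -0.25 and -0.20 on log2(TPM + 1). Its call in GILZ TG was lost without replicates 1 and 2 of that genotype (0.30, adjusted p = 0.189), without untreated replicate 3 (0.29, adjusted p = 0.15) and without LPS replicate 1 or 2 (0.38 and 0.31, adjusted p = 0.0914 and 0.136), and with only the 6 libraries of the genotype (0.44, adjusted p = 0.113). In GILZ KO, C1qc was past the threshold with DESeq2 (0.42, adjusted p = 0.0234), with RLE size factors in edgeR (0.42, adjusted p = 0.0401), with only the 6 libraries of the genotype (0.37, adjusted p = 0.0022) and without LPS replicate 1 (0.48, adjusted p = 0.0365). In WT it was past it with only the 6 libraries (0.34, adjusted p = 0.0118). C1qa was at 0.33, 0.35 and 0.41, not past the threshold (adjusted p = 0.301, 0.302 and 0.193 from edgeR), and at -0.31, -0.28 and -0.26 on log2(TPM + 1). With the replicate as a block, C1qa and C1qc were past the threshold as higher in all 3 genotypes (C1qa in GILZ TG 0.38, adjusted p = 0.00186 from edgeR). In GILZ TG, C1qa was also past it without LPS replicate 3 (0.71, adjusted p = 0.0102). With only the 6 libraries of the genotype, C1qa was past it in WT and GILZ KO (0.33 and 0.34, adjusted p = 0.0342 and 0.00744).

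Cfp, which encodes properdin, was at 625.6, 639.0 and 711.5 TPM in untreated WT and at 449.5, 488.1 and 542.5 TPM after LPS. The TPM ranges of the treatments did not overlap in any genotype. Relative to the median gene its log2 fold change was 0.20 in WT (SE 0.09, adjusted p = 0.0565 from edgeR), 0.31 in GILZ KO (0.09, adjusted p = 0.00567) and 0.23 in GILZ TG (0.09, adjusted p = 0.0299), but on log2(TPM + 1) it was -0.42, -0.33 and -0.40 and past the threshold in each genotype (adjusted p = 0.000108, 0.00102 and 0.000158 from limma). In GILZ TG the call on the TMM scale was lost without untreated replicate 1 or 2 or LPS replicate 1 or 3 (adjusted p between 0.0606 and 0.146), with no filter on low counts (adjusted p = 0.0561) and without replicates 1 and 2 of that genotype (0.20, adjusted p = 0.308). In WT, Cfp was past the threshold as higher with DESeq2 (0.22, adjusted p = 0.0209), with RLE size factors in edgeR (0.22, adjusted p = 0.0328) and without untreated replicate 3 or LPS replicate 1 (adjusted p = 0.0237 and 0.0263). The same held for Cfp in WT with the replicate as a block.

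**Figure D2:**
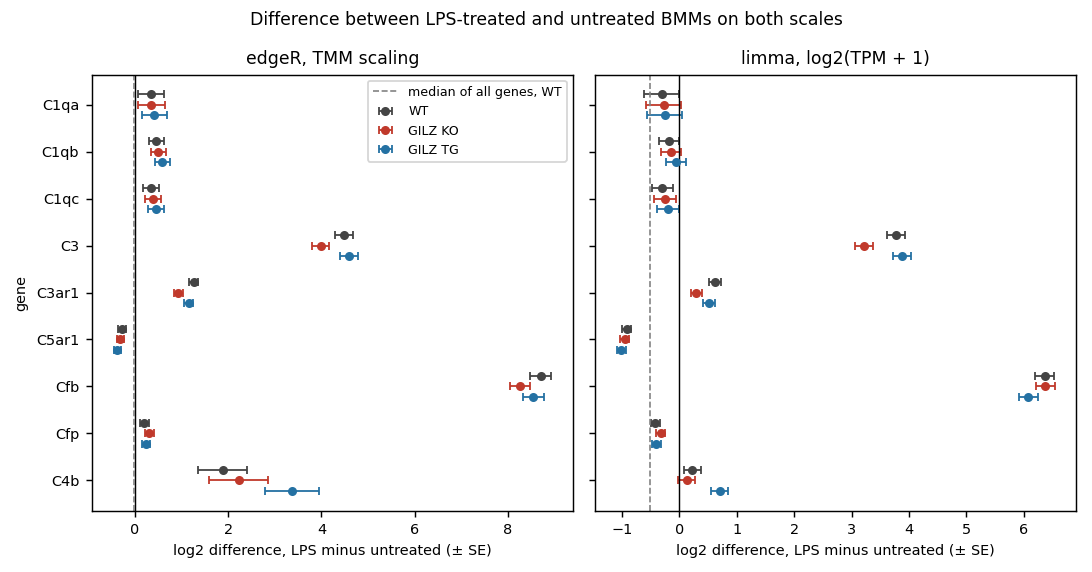
Log2 difference between LPS-treated and untreated BMMs (x axis, ± standard error) for the 9 members (y axis) in each genotype, from edgeR with TMM scaling and from limma on log2(TPM + 1), with a dashed line for the median of all genes in WT. Cfb, C3 and C3ar1 are above 0 and C5ar1 below 0 in both panels, while C1qa, C1qb, C1qc and Cfp lie above 0 in the first and below 0 in the second.

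The 3 genotypes were then compared within each treatment, which asked whether complement expression depends on the level of GILZ. None of the 8 members tested in untreated BMMs differed between GILZ KO and WT (background 0.0951%) or between GILZ TG and WT (0.642%). At an unadjusted p under 0.05 there were 4 and 3 members, where 9.6% and 14.1% of all genes were, and DESeq2 called 0 in both (background 0.626% and 2.5%). GILZ KO differed from GILZ TG in 4 of 8 members (background 4.94%), with C1qa, C1qb and C1qc lower (background 2.16%) and C3 higher in GILZ KO (2.77%). C4b was too low to be tested without treatment. After LPS, 0 of 9 members differed between GILZ KO and WT (background 0.0822%) and between GILZ TG and WT (0.46%), with 2 and 3 at an unadjusted p under 0.05 (9.63% and 15.2% of all genes) and 0 and 1 (C1qb) called by DESeq2 (background 0.822% and 2.25%). C1qa and C1qb differed between GILZ KO and GILZ TG (2 of 9, background 2.6%), both lower in GILZ KO (background 1.38%, and 1.22% for higher). The 3 comparisons of a treatment share their libraries and are not independent.

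The genes of the C1q chains, which lie next to each other on chromosome 4, were lowest in GILZ KO. C1qa was at 123.1, 123.5 and 121.4 TPM in untreated WT, at 63.3, 78.2 and 78.3 TPM in GILZ KO and at 203.3, 258.7 and 112.5 TPM in GILZ TG. GILZ KO lay below both other genotypes without overlap, while GILZ TG replicate 3 was below WT and replicates 1 and 2 were far above it. On the log2 scale the change between GILZ KO and GILZ TG was -1.42 (SE 0.24, adjusted p = 0.0139 from edgeR). Between GILZ KO and WT it was -0.79 (0.23, adjusted p = 0.386), and between GILZ TG and WT 0.63 (0.23, adjusted p = 0.247), neither of which passed the threshold.

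After LPS, C1qa was at 113.3, 104.2 and 81.95 TPM in WT, at 54.1, 63.8 and 62.7 TPM in GILZ KO and at 185.0, 227.2 and 82.3 TPM in GILZ TG. GILZ KO again lay below both other genotypes, GILZ TG replicates 1 and 2 lay above WT, and GILZ TG replicate 3 was within the range of WT. The log2 fold change was -1.46 between GILZ KO and GILZ TG (SE 0.28, adjusted p = 0.0263 from edgeR), -0.74 between GILZ KO and WT (0.28, adjusted p = 0.438) and 0.72 between GILZ TG and WT (0.27, adjusted p = 0.232).

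C1qb was at 729.5, 873.7 and 813.2 TPM in untreated GILZ KO and at 1397.7, 1519.0 and 960.0 TPM in GILZ TG, with WT in between at 952.5 to 1020.1 TPM. After LPS it was at 641.0, 808.7 and 742.2 TPM in GILZ KO, 824.6 to 928.1 TPM in WT and 1374.4, 1491.4 and 890.9 TPM in GILZ TG. GILZ KO libraries were below all others in both treatments, and only GILZ TG replicates 1 and 2 exceeded WT. On the log2 scale the change between GILZ KO and GILZ TG was -0.71 without treatment (SE 0.14, adjusted p = 0.0228 from edgeR) and -0.78 after LPS (0.16, adjusted p = 0.0325). Against WT, GILZ KO was at -0.33 and -0.26 (adjusted p = 0.508 and 0.645) and GILZ TG at 0.39 and 0.52 (adjusted p = 0.237 and 0.165).

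C1qc was at 358.4, 445.8 and 426.0 TPM in untreated GILZ KO, 461.6 to 550.2 TPM in WT and 694.9, 739.6 and 495.4 TPM in GILZ TG. After LPS it was at 309.8, 372.3 and 349.9 TPM in GILZ KO, which overlapped WT (366.1 to 454.4 TPM), whereas GILZ TG lay at 624.9, 704.4 and 383.7 TPM. It showed the order of C1qb, with log2 fold changes between GILZ KO and GILZ TG of -0.68 (SE 0.13, adjusted p = 0.0234 from edgeR) and -0.73 (0.18, adjusted p = 0.0543), the latter not past the threshold. C1qc to C1qb TPM ratios were 0.431 to 0.539 in all 18 libraries, but the ratio of C1qa to C1qb differed between genotypes. It was 0.0867 to 0.0963 in untreated GILZ KO, 0.1207 to 0.1275 in WT and 0.1172 to 0.1703 in GILZ TG, without overlap between GILZ KO and the others.

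The calls for the C1q chains rested on few libraries. Over the alternatives the adjusted p for GILZ KO against GILZ TG without treatment was between 5.8e-05 and 0.0839 for C1qa, 1.04e-05 and 0.184 for C1qb, and 1.81e-05 and 0.216 for C1qc. After LPS it was between 5.55e-05 and 0.354, 4.89e-05 and 0.425, and 0.000514 and 0.657. Without GILZ TG replicates 1 and 2, a fit in which the lone GILZ TG library is assumed to vary like the other groups, GILZ KO compared to GILZ TG without treatment gave -0.67 for C1qa (adjusted p = 0.0642 from edgeR), -0.30 for C1qb (adjusted p = 0.184) and -0.32 for C1qc (adjusted p = 0.216). After LPS it was -0.50, -0.33 and -0.20 (adjusted p = 0.354, 0.425 and 0.657). GILZ TG against WT then was -0.12, -0.03 and -0.01 without treatment and -0.25, 0.07 and -0.06 after LPS. The direction of GILZ KO below GILZ TG remained, while GILZ TG replicate 3 was close to WT. Without untreated GILZ KO replicate 1, 2 or 3, 0 members were called between GILZ KO and GILZ TG, and 1 without GILZ TG replicate 1 or 2, and after LPS 0 without any 1 of these. The calls over all genes also became fewer in these fits, 79 to 180 in place of 623 without treatment and 24 to 133 in place of 316 after LPS. The log2 fold changes with 1 library left out remained between -1.69 and -1.14 for C1qa, -0.89 and -0.58 for C1qb and -0.84 and -0.57 for C1qc without treatment, and between -1.77 and -1.20, -0.96 and -0.66, and -0.94 and -0.58 after LPS. Conversely, without GILZ TG replicate 3 all 3 chains were higher in GILZ TG than in WT, both without treatment (C1qa 0.90, adjusted p = 0.00164) and after LPS (C1qa 1.02, adjusted p = 0.00149). Of all genes, 3.44% and 4.45% were higher in these fits, against 0.364% and 0.263% with all libraries. The summed C1q level was high in the libraries with high stromal, neutrophil lineage and B cell marker levels, at 2296 and 2517 against 1568 TPM in untreated GILZ TG. The part of these markers in the difference was not tested, and fewer cells of a type cannot be told apart from less RNA per cell.

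**Figure D3:**
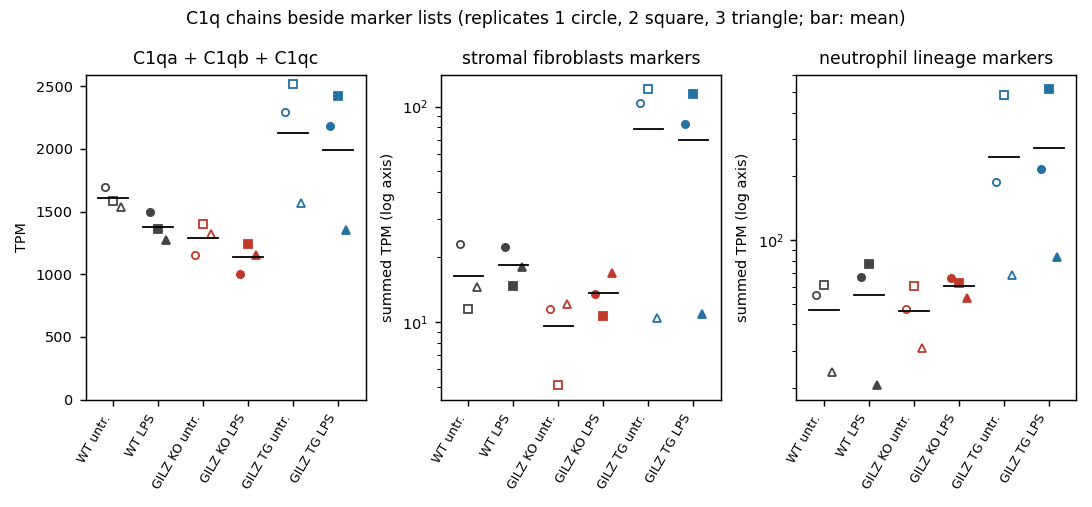
Summed TPM of C1qa, C1qb and C1qc and of the stromal fibroblast and neutrophil lineage markers (log axes for the markers) in each library, with symbols by replicate (circle 1, square 2, triangle 3) and bars for the mean. GILZ TG replicates 1 and 2 are high in each panel. Replicate 3 is near WT for C1q and the stromal markers. For the neutrophil lineage markers it is above all WT and GILZ KO libraries of the same treatment. GILZ KO has the lowest C1q sums at 1151 to 1398 TPM without treatment.

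In untreated BMMs, C3 was higher in GILZ KO than in GILZ TG. GILZ KO was at 45.3 to 46.9 TPM, above all libraries of WT (26.7 to 36.1 TPM) and GILZ TG (28.45 to 33.53 TPM). The log2 fold change was 0.47 between GILZ KO and GILZ TG (SE 0.11, adjusted p = 0.0458 from edgeR) and 0.40 between GILZ KO and WT (0.11, adjusted p = 0.358). The call was close to the threshold: it was lost when any 1 of the GILZ KO or GILZ TG libraries was left out (adjusted p = 0.0527 to 0.148), with scaling by library totals (0.051) and with all 18 libraries in one fit (0.109), and without GILZ TG replicates 1 and 2 the difference was 0.72 with adjusted p = 0.0912. Over all alternatives the adjusted p was between 0.00302 and 0.148. After LPS the genotypes overlapped, with -0.13 between GILZ KO and GILZ TG (adjusted p = 0.76) and -0.07 between GILZ KO and WT (adjusted p = 0.929).

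Cfb was highest in GILZ KO after LPS, where its libraries lay above those of WT (105.4 to 143.7 TPM), with 1 just above the highest WT value, and of GILZ TG (98.02 to 127.5 TPM). On the log2 scale the change between GILZ KO and GILZ TG was 0.52 (SE 0.14, adjusted p = 0.0802 from edgeR), which did not pass the threshold. It was past it with DESeq2 (adjusted p = 0.012), with no filter on low counts (0.00704), with the replicate as a block (0.0228), with all 18 libraries in one fit (0.035) and without GILZ TG LPS replicate 3 (0.68, adjusted p = 0.00688), and at 0.23 (adjusted p = 0.64) without GILZ TG replicates 1 and 2. Over the alternatives the adjusted p was between 0.00688 and 0.64. Between GILZ KO and WT it was 0.29 (adjusted p = 0.565).

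The receptors and properdin differed little between genotypes. After LPS, C3ar1 was lower in GILZ KO (516.7 to 557.9 TPM) than in WT (601.9 to 807.4 TPM) and GILZ TG (605.0 to 659.9 TPM) without overlap, at -0.37 against WT (SE 0.11, unadjusted p = 0.00527 and adjusted p = 0.303 from edgeR) and -0.27 against GILZ TG (0.11, adjusted p = 0.19), so the difference failed the correction. C5ar1 was within -0.15 and 0.08 and Cfp within -0.16 and 0.13 in the 6 genotype comparisons, with adjusted p of at least 0.176 for C5ar1 and 0.29 for Cfp. C4b after LPS was at 0.17 to 0.68 TPM in WT, 0.18 to 0.30 TPM in GILZ KO and 0.55 to 0.87 TPM in GILZ TG, and passed the threshold in no comparison (lowest adjusted p = 0.438). In TPM, 1 member lay without overlap above and 5 below GILZ TG in GILZ KO after LPS (background 11.2% and 9.36%), and 1 above and 4 below without treatment (18.6% and 10.1%). Against WT, GILZ KO had 1 above and 3 below in both treatments (12.7% and 4.52% untreated, 9.62% and 6.66% after LPS), and GILZ TG had none in either direction (9.75% and 5.1% untreated, 7.78% and 7.43% after LPS). The smallest p that an exact permutation test of 3 libraries against 3 allows is 0.1.

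**Figure D4:**
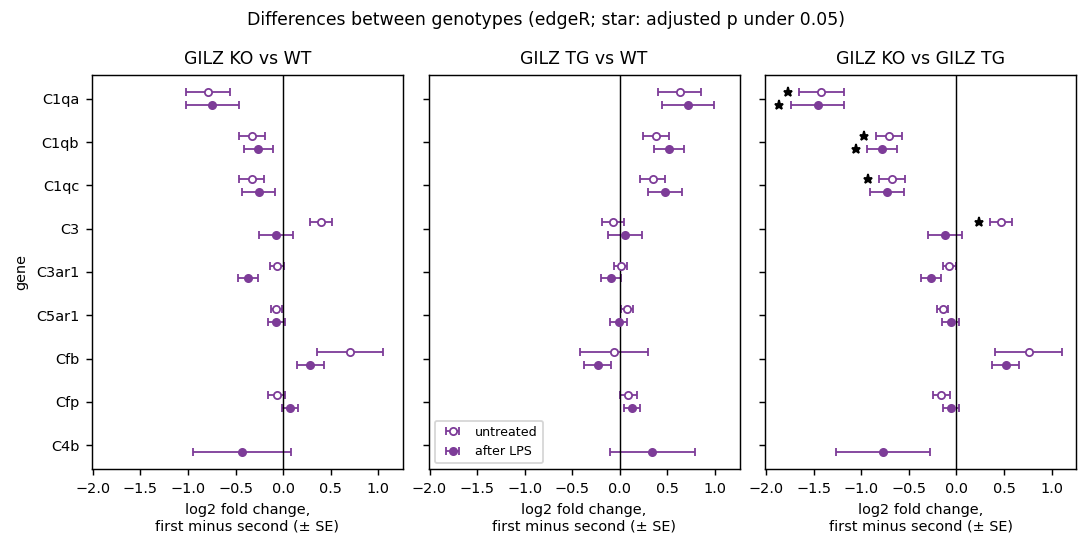
Log2 fold change between genotypes (x axis, ± standard error, edgeR) for the 9 members (y axis), untreated (open) and after LPS (filled), with a star for an adjusted p under 0.05. Stars appear only for GILZ KO against GILZ TG, at C1qa, C1qb, C1qc and C3 without treatment and at C1qa and C1qb after LPS; C4b has no untreated value.

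The response to LPS was also compared between genotypes directly, as the difference of the log2 fold changes. None of the 9 members differed between GILZ KO and WT (background 0.0152%), between GILZ TG and WT (0.00759%) or between GILZ KO and GILZ TG (0.121%) by edgeR, and 0 by DESeq2 (background 0.152%, 0.0152% and 1.14%). There were 1, 0 and 1 members at an unadjusted p under 0.05, where 6.36%, 3.09% and 9.92% of all genes were. The estimated difference in the C3 response was -0.50 between GILZ KO and WT (SE 0.24, adjusted p = 0.784 from edgeR). Between GILZ KO and GILZ TG it was -0.62 (0.24, unadjusted p = 0.0188 and adjusted p = 0.351). C3ar1 gave -0.33 against WT (0.13, unadjusted p = 0.0256 and adjusted p = 0.696) and -0.22 against GILZ TG (0.13, adjusted p = 0.669). For C4b the difference was 1.49 between GILZ TG and WT (SE 0.80) and -1.15 between GILZ KO and GILZ TG (0.895). For Cfb it was -0.45 between GILZ KO and WT (0.438). None of these passed the threshold, and with these standard errors differences of these sizes or smaller were not detectable.

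The remaining complement system was followed in 44 further genes. Of these, 16 were high enough to be tested for LPS. In WT 7 rose and 4 fell (33.5% and 35.1% of all genes), in GILZ KO 6 and 3 (33.2% and 35.4%), and in GILZ TG 7 and 4 (33.6% and 35.1%), with a median log2 fold change over the 16 of 0.46, 0.41 and 0.43. By role, of the 5 testable classical and lectin initiators 3 rose in WT and in GILZ TG and 2 in GILZ KO. None of 2 soluble regulators passed the threshold in any genotype, 2 of 3 membrane regulators rose and 1 fell in each, and of 6 receptors 2 rose and 3 fell in WT. None of the 7 terminal components, which form the membrane attack complex, and not Cfd, the protease that cleaves factor B, could be tested, with at most 1.27 TPM for C8g and 0.06 TPM for Cfd in any library. On log2(TPM + 1), 2 of the 16 rose and 6 fell in WT (16.1% and 65.0% of all genes), 3 and 7 in GILZ KO (15.3% and 66.1%) and 2 and 5 in GILZ TG (15.6% and 65.2%), with C1ra and Cd55 among those that rose in each genotype.

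C1ra, whose product is a protease of the C1 complex, was at 1.59 to 1.96 TPM in untreated WT and 6.41 to 7.44 TPM after LPS, a log2 fold change of 2.65 (SE 0.14, adjusted p = 2.11e-11 from edgeR), with 2.35 in GILZ KO and 2.78 in GILZ TG. C1s1, of the other C1 protease, was at 2.67 (0.80, adjusted p = 0.0068) in WT but had at most 1.27 TPM, was not past the threshold in GILZ KO, and on log2(TPM + 1) was at 0.18 in WT and -0.01 in GILZ KO. Cd55, a membrane protein that dissociates C3 convertases, was at 5.70 to 9.17 TPM in untreated WT and 10.59 to 13.57 TPM after LPS, with log2 fold changes of 1.47 in WT (0.17, adjusted p = 8.86e-07 from edgeR), 1.58 in GILZ KO and 1.66 in GILZ TG. Among the genes that fell, C5ar2, the second C5a receptor, was at 5.48 to 6.42 TPM in untreated WT and 1.31 to 1.78 TPM after LPS. Its log2 fold change was -1.37 in WT (0.12, adjusted p = 9.75e-09), -1.90 in GILZ KO and -1.35 in GILZ TG, and the groups did not overlap. Both C5a receptors were thus lower after LPS on each scale. Cd59a, which blocks the membrane attack complex, was at -0.56 (0.12, adjusted p = 0.000585), and Cd93 at -0.42 (0.10, adjusted p = 0.000882) in WT.

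**Figure D5:**
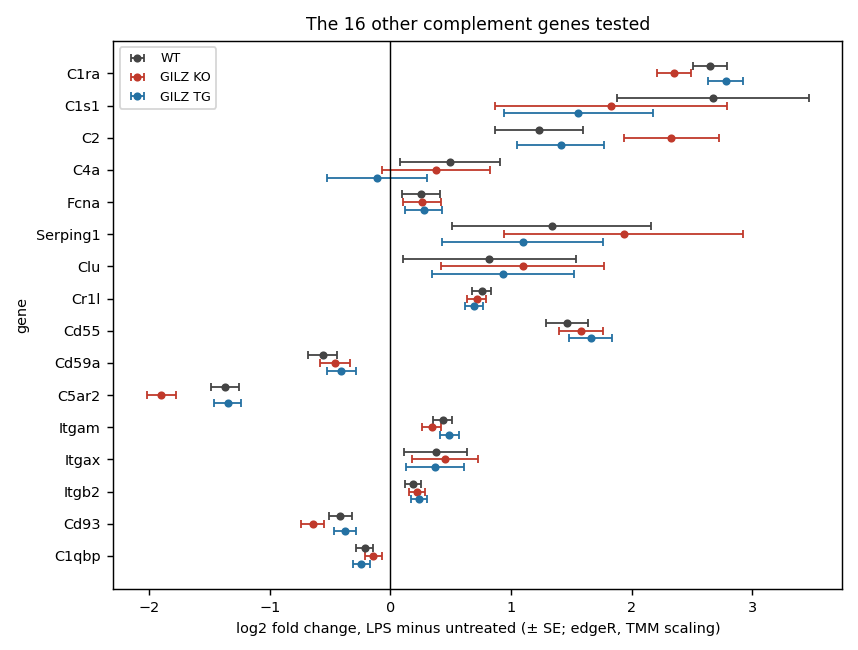
Log2 difference between LPS-treated and untreated BMMs (x axis, ± standard error, edgeR with TMM scaling) for the 16 other complement genes that could be tested (y axis), by genotype. C1ra and Cd55 lie above 0 and C5ar2, Cd59a and Cd93 below 0 in all 3 genotypes.

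Between genotypes, 1 of the 13 other complement genes tested without treatment differed in GILZ TG from WT (0.642% of all genes), 1 in GILZ KO from GILZ TG (4.94%), and 0 in GILZ KO from WT (0.0951%). After LPS it was 1, 1 and 0 of 15 (0.46%, 2.6% and 0.0822% of all genes), and the gene was Itgax each time. Itgax, the alpha chain of complement receptor 4 and a marker of dendritic cells, was at 4.39 to 7.05 TPM in untreated WT, 4.92 to 5.77 TPM in GILZ KO and 10.39 to 20.60 TPM in GILZ TG. Its lowest GILZ TG library, replicate 3, was above all libraries of the other genotypes. Replicates 1 and 2, in which the stromal and neutrophil lineage markers were high, had 17.45 and 20.6 TPM against 10.39 TPM in replicate 3, and after LPS 13.59 and 17.41 against 9.36 TPM. The part of these markers in the difference was not tested. The log2 fold change was 1.57 between GILZ TG and WT (SE 0.23, adjusted p = 0.0194 from edgeR) and -1.64 between GILZ KO and GILZ TG (0.23, adjusted p = 0.00789), and after LPS 1.57 (0.23, adjusted p = 0.0171) and -1.53 (0.24, adjusted p = 0.0122). Without GILZ TG replicates 1 and 2, Itgax was at 0.94 (adjusted p = 0.188) and -1.02 (adjusted p = 0.091), and after LPS at 1.08 (adjusted p = 0.242) and -1.05 (adjusted p = 0.177), and no call remained. Of the 15 alternatives, 10 kept the call of Itgax between GILZ TG and WT and 13 that between GILZ KO and GILZ TG, in either treatment. On log2(TPM + 0.1) it just missed the threshold for GILZ TG against untreated WT (adjusted p = 0.054 from limma). With 1 library left out, Itgax was not past the threshold between GILZ TG and WT without GILZ TG replicate 1 or 2 or WT replicate 2 (adjusted p = 0.0634, 0.0672 and 0.124 untreated, 0.0547, 0.0724 and 0.114 after LPS) or without WT LPS replicate 3 (0.0629). For GILZ KO against GILZ TG its call was lost without GILZ KO replicate 1 (0.0573 untreated and 0.0806 after LPS).

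For each member the genes with the most similar pattern were sought among 9371 genes with a mean of at least 5 TPM, as the root mean square of the differences between log2(TPM + 1) values, each gene centred on its mean, over the 18 libraries. Folr2, a folate receptor of macrophages, was nearest to C1qb (0.187, then Fkbp9 with 0.198) and C1qc (0.138, then Chst11 with 0.183), and second for C1qa (0.329) after Ighm (0.28). Dtx3l (0.191) and Parp9 (0.197) were nearest to C3, and Gm43302 (0.256) and Gbp7 (0.268) to Cfb. For the other members the nearest genes were Pcmtd1 (0.0843) and Ccdc6 (0.0845) for C3ar1, Btbd1 (0.0603) and Cenpb (0.0756) for C5ar1, Bcat2 (0.0604) and Oaz1 (0.0658) for Cfp, and Ppp1r11 (0.178) and Tmem50a (0.182) for C4b. These distances are to be read beside the root mean square of a gene around its own mean. It was 3.15 for Cfb, 1.83 for C3, 0.653 for C1qa, 0.489 for C5ar1, 0.365 for C1qc and 0.355 for C1qb. For C3ar1 it was 0.281, for C4b 0.279 and for Cfp 0.214. For C4b, which had at most 0.87 TPM, and for C1qa, C1qb and C1qc the distances were not small beside this value. The genes named for these members are thus weak matches. Ighm is also 1 of the 6 B cell markers whose sum was high in GILZ TG replicates 1 and 2.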

How the data were processed

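RNA of the 18 libraries was prepared with a stranded poly(A) kit and sequenced as single reads. The authors processed the reads with grape-nf (GRCm38) and deposited expected counts and TPM per gene; their submitters' notes name DESeq2 1.40.2 and FastQC 0.11.2. Columns with the authors' own fold changes and p-values were not used. Expected counts were rounded, filtered for low genes with filterByExpr and tested with edgeR 4.0.16 (quasi-likelihood, TMM) in R 4.3.3, with limma 3.58.1 on log2(TPM + 1) and DESeq2 1.42.0 as alternatives. Genotypes were compared in the 9 libraries of a treatment, and LPS effects and their differences in all 18. The members, lists and tests were chosen with earlier results of these data known. Named genes were all members and, of the other complement genes, the 3 largest rises and falls after LPS in WT and any gene called between genotypes, with the 2 genes of most similar pattern for each member. Simulated data had the same spread for all genes, no outlying replicates and only 2-fold and 4-fold changes. In them, edgeR recovered 89.5% of 200 changed genes among 12831 for LPS in WT. For GILZ KO against WT untreated it recovered 87% among 12653 (81% of 2-fold changes). For the difference of LPS responses between GILZ KO and WT it was 77% among 12820 (58% of 2-fold and 96% of 4-fold changes). These rates do not cover changes below 2-fold, such as those of the members between GILZ KO and WT, or uneven replicates. Same-numbered libraries deviated together (r over 0.1 in every pair) only for untreated and LPS libraries of GILZ TG (0.266 to 0.605). There, untreated replicate 1 with LPS replicate 2 (0.347) and untreated replicate 2 with LPS replicate 1 (0.258) also did. Replicate 3 with either of the others was negative (-0.524 to -0.369). The values thus do not show that the numbers pair libraries. 1 further gene is not reported here. The study calls preparations independent. Alternatives were other scalings, filters and fits, leaving out single libraries or GILZ TG replicates 1 and 2, and scaling by library totals, which was chosen after seeing the data. The total count per library limits the precision of low genes such as Cfb and C4b.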

Additional observations from a re-analysis of the deposited data

How the results depend on the processing

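The number of members called after LPS was 5 to 9 in WT and in GILZ KO and 6 to 9 in GILZ TG over the alternatives, against 6, 7 and 8. With the replicate as a block it was 9 in each genotype, since C1qa, C1qc and Cfp in WT, C1qa and C1qc in GILZ KO and C1qa in GILZ TG were then past the threshold. The samples are known to share only a number (4 of 9 same-numbered untreated and LPS pairs over 0.1, of which 3 were GILZ TG, and 2 of 18 pairs of genotypes). In GILZ TG, replicates 1 and 2 also deviated together across different numbers. The block gave 3 called members in place of 2 between GILZ KO and GILZ TG after LPS (2.24% of all genes) and changed no other count of calls between genotypes or of LPS responses. Between GILZ KO and GILZ TG without treatment, 4 members (4.94% of all genes) became 2 with limma on log2(TPM + 1) (2.12%) and 2 on log2(TPM + 0.1) (2.09%), 0 without GILZ TG replicates 1 and 2 (0.26%), and 0 to 3 with 1 library left out. After LPS, 2 (2.6% of all genes) became 4 with DESeq2 (5.88%), 4 with no filter (4.11%), 4 with all 18 libraries in one fit (6.04%), 0 and 0 with limma (1.21% and 1.22%), 0 without GILZ TG replicates 1 and 2 (0.27%), and 0 to 4 with 1 library left out. GILZ TG against WT after LPS had 1 with DESeq2 (2.25%), 1 with no filter (2.06%) and 0 to 3 with 1 library left out, and 0 to 3 without treatment. The cause of these changes was not tested.

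Directions of the LPS difference reversed with scaling by library totals, limma on log2(TPM + 1) and limma on log2(TPM + 0.1), in that order. C1qa was at -0.35, -0.31 and -0.31 in WT, -0.29, -0.28 and -0.28 in GILZ KO and -0.25, -0.26 and -0.26 in GILZ TG. C1qb was at -0.22, -0.18 and -0.18, at -0.14, -0.14 and -0.14, and at -0.082, -0.053 and -0.053. C1qc was at -0.34, -0.30 and -0.30, at -0.26, -0.25 and -0.25, and at -0.21, -0.20 and -0.20. Cfp was at -0.48, -0.42 and -0.42, at -0.33, -0.33 and -0.33, and at -0.44, -0.40 and -0.40. These scalings do not centre the median gene.

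Without GILZ TG replicates 1 and 2, GILZ TG against WT reversed for C1qa (-0.12), C1qb (-0.025), C1qc (-0.01), C3ar1 (-0.11) and Cfb (0.28) without treatment, and for C1qa (-0.25), C1qc (-0.061), C5ar1 (0.015), Cfb (0.052) and C4b (-0.55) after LPS. GILZ KO against GILZ TG reversed for C3ar1 untreated (0.041) and C4b after LPS (0.11). GILZ TG against WT reversed for C5ar1 after LPS with library totals (0.005) and for Cfb without treatment with limma (0.144 and 0.295). Of the values given in the text, those that crossed 0 with 1 library left out were C3 from -0.166 to 0.037 for GILZ TG against WT untreated, -0.132 to 0.303 after LPS and -0.06 to 0.374 in the LPS response, and -0.26 to 0.178 for GILZ KO against WT after LPS. C3ar1 ranged from -0.049 to 0.068, -0.20 to 0.04 and -0.21 to 0.028 in the same order for GILZ TG against WT. C5ar1 after LPS ranged from -0.152 to 0.033 for GILZ KO and -0.092 to 0.095 for GILZ TG against WT, and Cfb untreated from -0.266 to 0.10 for GILZ TG against WT. Cfp ranged from -0.12 to 0.026 for GILZ KO against WT untreated and -0.098 to 0.007 against GILZ TG after LPS. None of these was past the threshold. For the LPS response of the other 7 members, 14 of 21 differences crossed 0 with 1 library left out, and the lowest adjusted p over all 21 was 0.518.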
